A study of Rattus norvegicus with 8 samples.

Results

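Transforming growth factor beta (TGF-beta) signalling was described here through 10 genes, chosen by symbol in the deposited count table: the ligands Tgfb1, Tgfb2 and Tgfb3, the receptors Tgfbr1, Tgfbr2 and Tgfbr3, the signal-transducing SMADs Smad2, Smad3 and Smad4, and the inhibitory Smad7. All 10 were found, each in 1 row, among 30562 genes, and all 10 passed the filter on low counts that 16591 genes passed. The liver RNA of 8 Wistar rats, all male by their labels, was sequenced, 2 rats in each of 4 groups, with 29376942 to 51982004 reads assigned to genes per library. The question of the study, per its title, was how atorvastatin modifies the liver transcriptome of rats exposed to hexachlorobenzene.

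The control group received vehicle. The HCB group received hexachlorobenzene (HCB), a chlorinated fungicide and persistent pollutant, by gavage at 100 mg/kg on 3 occasions a week for 30 days. The atorvastatin group received this statin, an inhibitor of cholesterol synthesis, with the drinking water. Its dose is given as 5 mg/kg daily, although the water recipe in the labels does not match that dose at the stated starting weight of 160 g. The combination group, atorvastatin plus HCB, received both, and all rats were killed on day 37. Each group had 5 rats, of which 2 were sequenced. How these were picked, and the age of the rats, are not given in the sources used here. Whole liver was used, so a lower level of a gene can mean fewer cells that carry it or less RNA per cell, and these cannot be told apart.

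TGF-beta ligands are secreted in latent complexes that the extracellular matrix stores until they are activated. An active ligand binds the type 2 receptor (Tgfbr2), which recruits and phosphorylates the type 1 receptor (Tgfbr1), and betaglycan (Tgfbr3) is a co-receptor that presents ligand, TGF-beta 2 above all. The active receptor phosphorylates SMAD2 and SMAD3, which join SMAD4 and regulate genes in the nucleus, while SMAD7, itself induced by the pathway, blocks the receptor. In liver the pathway restrains hepatocyte growth and drives matrix production by stellate cells.

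A set of 4 libraries went against its labels, and this bears on every comparison of HCB. All rats are labelled male, yet the summed level of 4 Y-linked genes was 135 to 217 CPM (read counts scaled to a common library size) in the 4 libraries whose labels name HCB, alone or with atorvastatin, and 0.9 to 1.9 CPM in the 4 others. The sum of 4 fetal liver genes (Afp, H19, Igf2 and Dlk1) was 145 to 329 CPM in the HCB-labelled libraries and 37427 to 51205 CPM in the others, and 3 genes of adult male liver summed to 3763 to 5738 against 12.6 to 17.3 CPM. The sum of 6 hepatocyte markers was high in all 8 libraries (51566 to 140208 CPM), most of it from albumin, Alb (45740 to 124965 CPM). The markers were not alike in both library sets: by the edgeR test given below, 4 were higher and 1 lower for the average of HCB. Markers of neutrophils (0.401 to 3.17 against 129 to 218 CPM) and of erythroid cells (11 to 52.7 against 144 to 657 CPM) were lower in the HCB-labelled libraries. Reads outside annotated exons made up 7.46% to 11.4% of the HCB-labelled libraries and 15.3% to 34% of the others. So each direction given for HCB below is a difference between libraries labelled as exposed and as unexposed that also differ in these genes, and an effect of HCB cannot be told apart from that difference.

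**Figure D1:**
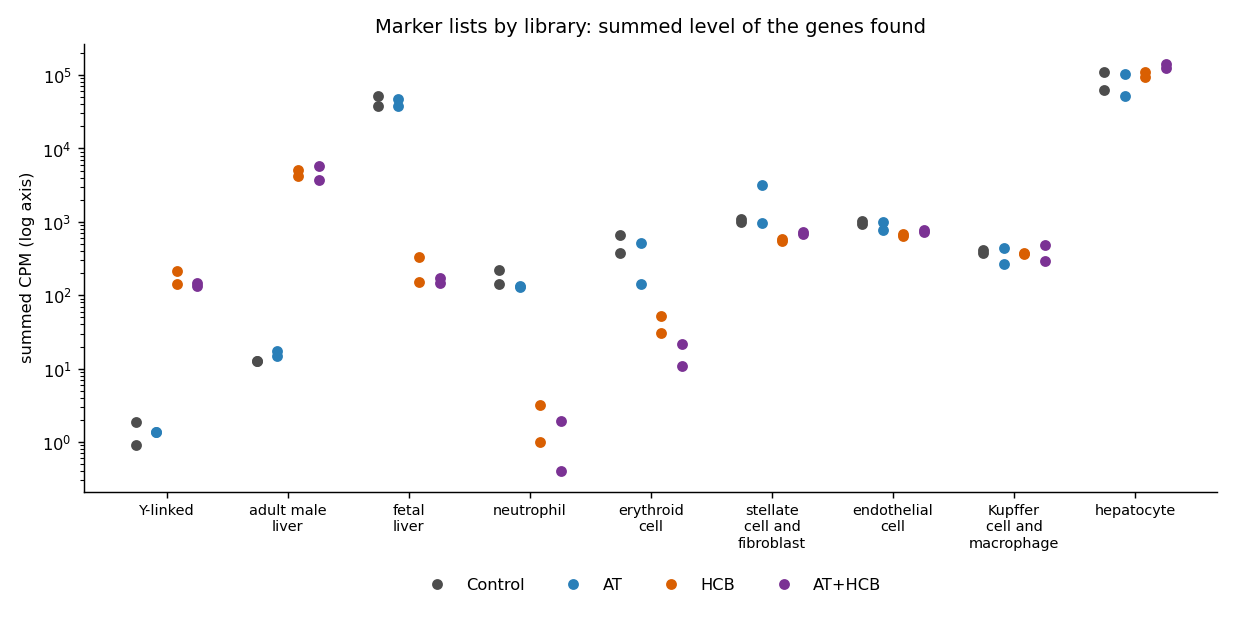
Summed CPM of marker genes (log axis) in each of the 8 libraries, as dots coloured by labelled group (AT, atorvastatin). The Y-linked, adult male and fetal lists separate the 4 HCB-labelled libraries from the 4 others, the stellate sum of 1 atorvastatin library (3226 CPM) stands above the other 7 libraries, and the Kupffer cell sums overlap.

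The levels of the 10 genes were compared with each other as CPM per kilobase of annotated exon. Tgfbr2 was the most abundant of them in every library, with a median of 59.1 and a range of 40.8 to 69.7, and its range did not overlap that of any other gene. Tgfbr3 followed with a median of 15.7 (8.42 to 25), then Smad4 with 9.85, Tgfb1 with 9.34, Tgfbr1 with 8.8, Smad7 with 7.51, Smad2 with 6.04, Smad3 with 4.13 and Tgfb3 with 2.1. Tgfb2 was lowest in every library, with a median of 0.714 (0.439 to 1.42). From Tgfbr3 down to Tgfb2, the ranges of neighbours in this order overlapped, so only the top place was set apart by more than the spread over libraries. Among the ligands Tgfb1 led in each library, with 65.2% to 81.3% of the summed ligand level per kilobase in the libraries without HCB and 73.4% to 79.7% in the HCB-labelled ones.

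**Figure D2:**
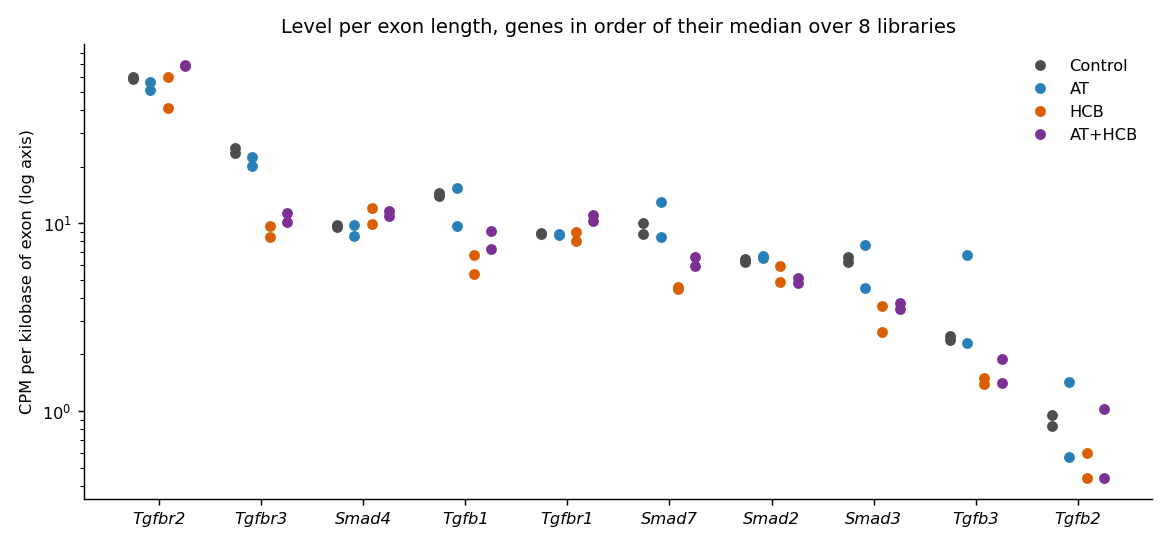
Level of each gene per exon length (CPM per kilobase of exon, log axis) in the 8 libraries, as dots coloured by labelled group (AT, atorvastatin), with the genes in order of their median. Tgfbr2 lies between 40.8 and 69.7 in all 8 libraries and Tgfb2 between 0.439 and 1.42.

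In libraries labelled HCB, transcripts of the major ligand, of the co-receptor betaglycan, of SMAD3 and of the inhibitor SMAD7 were 2.05 to 2.67-fold below control, while those of both signalling receptors, SMAD2 and SMAD4 were not called. By edgeR's quasi-likelihood test (Benjamini-Hochberg adjusted p below 0.05 over all genes tested), 4 of the 10 genes fell between HCB and control and 0 rose. Among all genes 26.9% were called there, and 13.9% fell. Between the combination and atorvastatin, which share no library with the first pair, 3 of the 10 fell and 0 rose, against 27.6% of all genes called and 15% that fell. For the average of both differences, over all 8 libraries, 5 of the 10 fell and 0 rose. In that comparison 46.6% of all genes were called, 25.3% lower and 21.3% higher, so the share of the 10 genes called, 50%, was near the background. The median log2 change of the 10 genes was −0.75, and that of all genes tested −0.11.

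The ligand Tgfb1 (ENSRNOG00000020652, chromosome 1, 81196532 to 81212847 on the plus strand of mRatBN7.2) is the form of TGF-beta best known for fibrosis. It stood at 21.1 and 20.4 CPM in the control libraries, at 14 and 22.3 CPM with atorvastatin, at 7.76 and 9.83 CPM in HCB, and at 10.6 and 13.2 CPM in the combination. All 4 HCB-labelled libraries were below the 4 others, the closest values being 13.2 CPM in a combination library and 14 CPM in an atorvastatin library. The log2 change was −1.24 ± 0.29 (SE) in HCB versus control (edgeR adjusted p = 0.00961), a level 2.36-fold lower. In the combination versus atorvastatin it was −0.61 ± 0.28 (edgeR adjusted p = 0.128), and the average was −0.93 ± 0.20 (edgeR adjusted p = 0.00355). The call in HCB versus control was lost without HCB replicate 1 (edgeR adjusted p = 0.074; range over 19 alternatives 0.000525 to 0.074).

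Tgfb3 (ENSRNOG00000009867, chromosome 6, 105704236 to 105726564, minus strand), a ligand expressed in mesenchymal cells, varied most where atorvastatin was given alone. It stood at 7.79 and 7.44 CPM in control, at 7.14 and 20.9 CPM with atorvastatin, at 4.62 and 4.33 CPM in HCB, and at 4.36 and 5.87 CPM in the combination. The HCB-labelled libraries were all below the others, but 1 library, Atorvastatin replicate 2, set the size of the gap. The average log2 change was −1.11 ± 0.30 (edgeR adjusted p = 0.0114), and without that library it was −0.62 (edgeR adjusted p = 0.0543). In the combination versus atorvastatin the change of −1.46 ± 0.43 (edgeR adjusted p = 0.0275) became −0.47 without it, and the call was lost. This call was also lost without HCB replicate 1 (log2 change −1.43) or either combination library (−1.23 and −1.66). With only the libraries of these 2 groups it was lost too (−1.44, edgeR adjusted p = 0.0758). The average was also not called without Atorvastatin plus HCB replicate 1 (−0.98, edgeR adjusted p = 0.0532). Over all alternatives the adjusted p ranged from 1.89e-05 to 0.0543 for the average and from 0.000161 to 0.385 for the combination versus atorvastatin. In HCB versus control the value was −0.77 ± 0.43 (edgeR adjusted p = 0.205).

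The same atorvastatin library held the highest Tgfb2 and stellate cell values. The sum of 7 stellate cell and fibroblast markers was 3226 CPM there, against 969 to 1110 CPM in the other libraries without HCB and 555 to 728 CPM in the HCB-labelled ones. The collagen gene Col1a1, counted in that sum, ranged from 136 to 1351 CPM in the libraries without HCB. Lrat, the retinol-storing enzyme that defines resting stellate cells, was at 42.1 to 57.1 CPM in the libraries without HCB and 41.3 to 61.1 CPM in the HCB-labelled ones. Of the 7 markers 3 fell for the average of HCB and 0 rose, while 4, Lrat among them, were not called. Those that fell were Col1a1, Reln and Pdgfrb (−0.99 ± 0.20). Reln was at 115 to 190 CPM in the HCB-labelled libraries and 353 to 451 CPM in the others (−1.42 ± 0.20). Reln and Pdgfrb were named after their values were seen. The part of these cells in the Tgfb3 result was not tested.

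Tgfb2 (ENSRNOG00000002418, chromosome 13, 98160087 to 98261405, minus strand) was the scarcest ligand and rested on 76 to 375 reads per library. It stood at 5.26 and 4.55 CPM in control, at 3.14 and 7.79 CPM with atorvastatin, at 2.41 and 3.28 CPM in HCB, and at 2.41 and 5.6 CPM in the combination. The groups overlapped, and replicates of a group differed by more than 2-fold with atorvastatin and in the combination. The average log2 change was −0.61 ± 0.35 (edgeR adjusted p = 0.166). It was called with total counts (−1.09, edgeR adjusted p = 0.0249) and without Atorvastatin replicate 1 (−0.87, 0.0467).

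Betaglycan, Tgfbr3 (ENSRNOG00000002093, chromosome 14, 2489397 to 2663341, plus strand), had the lowest adjusted p of the 10 genes. It stood at 92.2 and 98.1 CPM in control, at 79.3 and 88.5 CPM with atorvastatin, at 33.1 and 38.1 CPM in HCB, and at 44.4 and 39.5 CPM in the combination. The HCB-labelled libraries, 33.1 to 44.4 CPM, lay far below the others, 79.3 to 98.1 CPM. The log2 change was −1.42 ± 0.22 in HCB versus control (edgeR adjusted p = 0.000996), −1 ± 0.22 in the combination versus atorvastatin (edgeR adjusted p = 0.00675) and −1.21 ± 0.15 on average (edgeR adjusted p = 0.000119), a level 2.31-fold lower. The first and the last were called under every alternative run. The second was lost without Atorvastatin plus HCB replicate 1 (edgeR adjusted p = 0.0619) or replicate 2 (0.0894), with a range of 0.000461 to 0.0894 over 19 alternatives.

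Both signalling receptors were not called in any comparison. Tgfbr2 (ENSRNOG00000013265, chromosome 8, 115794537 to 115883228, minus strand) stood at 281 and 275 CPM in control, at 240 and 263 CPM with atorvastatin, at 191 and 279 CPM in HCB, and at 320 and 327 CPM in the combination. Its average log2 change was 0.06 ± 0.19 (edgeR adjusted p = 0.817), and the widest gap between replicates was in the HCB group. Tgfbr1 (ENSRNOG00000007036, chromosome 5, 61653233 to 61710777, plus strand) stood at 55.8 and 54.7 CPM in control, at 54.8 and 54.2 CPM with atorvastatin, at 56.2 and 50.2 CPM in HCB, and at 68.9 and 64.8 CPM in the combination. The combination libraries were the highest for both receptors. The average change of Tgfbr1 was 0.12 ± 0.15 (edgeR adjusted p = 0.519).

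Co-receptor and signalling receptor were also compared as a ratio within each library, which needs no scaling between libraries. The ratio of Tgfbr3 to Tgfbr2, both per kilobase, was 0.144 to 0.207 in the 4 HCB-labelled libraries and 0.391 to 0.426 in the 4 others. An exact 2-sided permutation test over the 8 libraries gave p = 0.0286, the smallest that 4 against 4 allows, and 0.2284 after adjustment over the 8 ratios computed, which does not pass 0.05. The ranges did not overlap. Of the other ratios, Smad7 over Smad2 was 0.757 to 1.37 against 1.29 to 1.93 (exact permutation p = 0.0571, adjusted 0.2284). Smad3 over Smad2 was 0.445 to 0.744 against 0.689 to 1.15 (exact permutation p = 0.1143, adjusted 0.3048). Smad7 over Smad3 was 1.26 to 1.88 against 1.41 to 1.88 (exact permutation p = 0.9429). With the smallest p this large, a ratio that misses the threshold is not shown to be alike in both library sets. The remaining 4 ratios, of Tgfb1 to each other ligand, of Tgfb1 to all ligands and of Tgfbr2 to Tgfbr1, overlapped between the library sets.

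**Figure D3:**
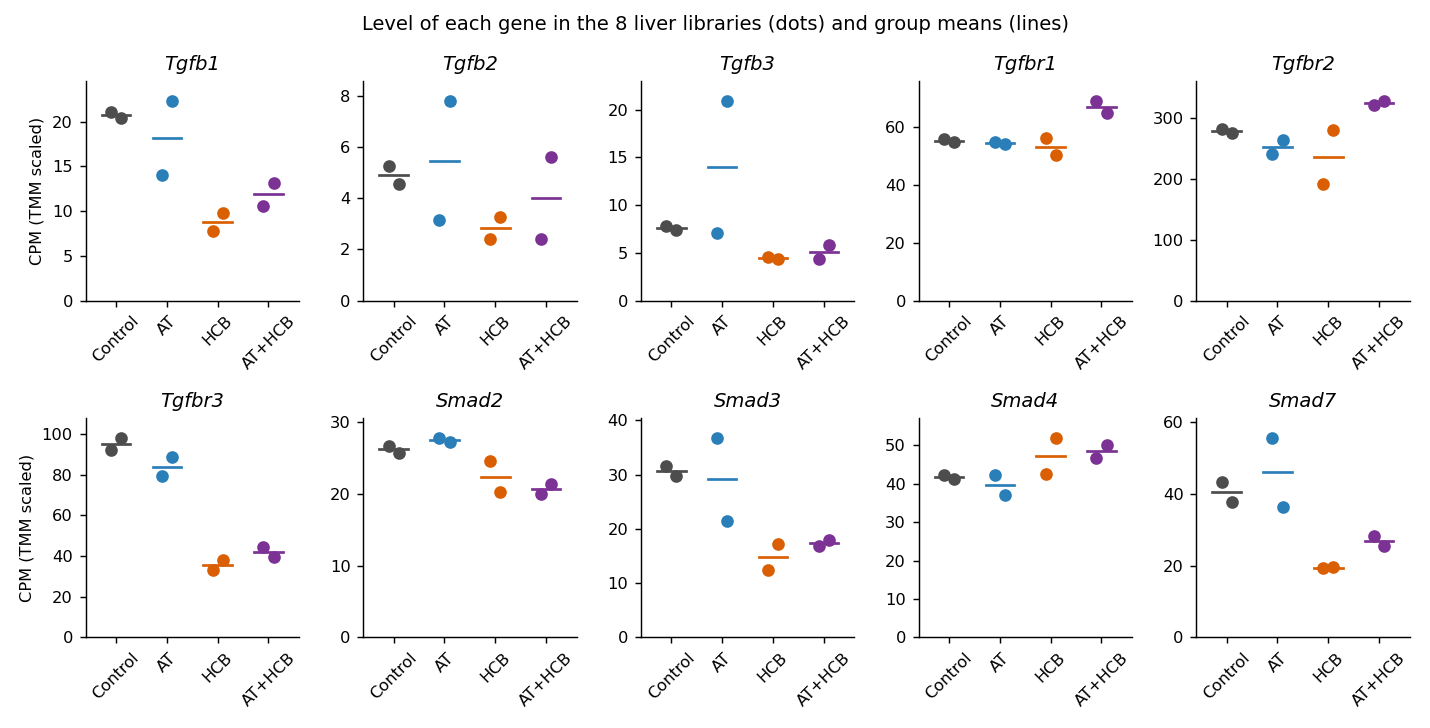
CPM of each of the 10 genes in the 8 libraries (dots) with the mean of each labelled group (lines), each panel on its own axis from 0 (AT, atorvastatin). Tgfbr3 lies between 33.1 and 44.4 CPM in the HCB-labelled libraries and between 79.3 and 98.1 CPM in the others, and the high Tgfb3 dot at 20.9 CPM is Atorvastatin replicate 2.

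Of the receptor-activated SMADs, Smad3 fell, and Smad2 was called under some scalings only. Smad3 (ENSRNOG00000008620, chromosome 8, 64110039 to 64236960, minus strand), which binds DNA and carries much of the fibrogenic response, stood at 31.5 and 29.8 CPM in control, at 36.8 and 21.5 CPM with atorvastatin, at 12.5 and 17.3 CPM in HCB, and at 16.8 and 18 CPM in the combination. The HCB-labelled libraries were all below the others. The log2 change was −1.04 ± 0.29 in HCB versus control (edgeR adjusted p = 0.0224), −0.75 ± 0.29 in the combination versus atorvastatin (edgeR adjusted p = 0.0742) and −0.89 ± 0.20 on average (edgeR adjusted p = 0.00461). In the combination versus atorvastatin Smad3 was called with total counts (−1.42, edgeR adjusted p = 0.016), upper-quartile factors (−0.92, 0.0383) and no filter (−0.74, 0.0488). It was also called there without Atorvastatin replicate 2 (log2 change −1.07). The HCB versus control call did not hold without Control replicate 1 (log2 change −1), Control replicate 2 (−1.04) or HCB replicate 1 (−0.8). It was also lost without Control replicate 1 and Atorvastatin replicate 1 together (−1). The average was lost when both libraries with most reads outside exons, Control replicate 1 and Atorvastatin replicate 1, were left out together (−0.65, edgeR adjusted p = 0.062; range over 18 alternatives 0.000111 to 0.062).

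Smad2 (ENSRNOG00000018140, chromosome 18, 69850377 to 69912323, plus strand) stood at 26.7 and 25.7 CPM in control, at 27.8 and 27.2 CPM with atorvastatin, at 24.5 and 20.2 CPM in HCB, and at 20 and 21.3 CPM in the combination. The 4 HCB-labelled libraries were again below the 4 others, by a small margin. Its average change of −0.32 ± 0.15 did not pass the test (edgeR adjusted p = 0.107), but this depended on the scaling. It was called on average with total counts (−0.86, edgeR adjusted p = 0.00482) and with upper-quartile factors (−0.46, 0.0313), and in the combination versus atorvastatin with total counts (−1.04, 0.0184).

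The common partner Smad4 (ENSRNOG00000051965, chromosome 18, 67243742 to 67274438, minus strand) was the only gene of the 10 with all HCB-labelled libraries above the others. It stood at 42.2 and 41.2 CPM in control, at 42.3 and 37 CPM with atorvastatin, at 42.6 and 52 CPM in HCB, and at 46.8 and 50.1 CPM in the combination. The margin was narrow (42.6 against 42.3 CPM), and the average change of 0.24 ± 0.15 was not called (edgeR adjusted p = 0.223).

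Smad7 (ENSRNOG00000018359, chromosome 18, 68988429 to 69016765, plus strand), the feedback inhibitor, stood at 43.2 and 37.8 CPM in control, at 55.6 and 36.4 CPM with atorvastatin, at 19.2 and 19.7 CPM in HCB, and at 28.3 and 25.6 CPM in the combination. No HCB-labelled library reached the lowest of the others. The log2 change was −1.06 ± 0.25 in HCB versus control (edgeR adjusted p = 0.0105), −0.77 ± 0.25 in the combination versus atorvastatin (edgeR adjusted p = 0.0397) and −0.91 ± 0.18 on average (edgeR adjusted p = 0.00174). The average was called under all 18 alternatives. The call in HCB versus control did not hold without Control replicate 1 (edgeR adjusted p = 0.0726) or HCB replicate 1 (0.0524), and when both libraries with most reads outside exons were left out (0.0595), with a range of 0.00178 to 0.0726 over 19 alternatives. The call in the combination versus atorvastatin was lost without any of 5 libraries, with the smallest change without Atorvastatin replicate 1 (−0.43). It was also lost without both libraries with most reads outside exons (−0.44). With only the libraries of these 2 groups it was lost too (−0.77, edgeR adjusted p = 0.0528).

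In all, 6 of the 10 genes had the 4 HCB-labelled libraries below the 4 others, which 25% of all genes tested did, and 1 had them above, which 21.8% did. The count of 4 genes called in HCB versus control fell without Control replicate 1, Control replicate 2 or HCB replicate 1. The count of 3 in the combination versus atorvastatin fell without either combination library, either control library, Atorvastatin replicate 1 or HCB replicate 1. In these fits the count over all genes tested fell as well, save in the combination versus atorvastatin without HCB replicate 1, where it rose. Scaling matters for the genes near 0. Scaling to total counts alone moved the median of all genes from −0.11 to −0.64 on average, raised the share of calls that were lower from 54.3% to 82.4%, and put Tgfbr1, Tgfbr2 and Smad4 below 0 (−0.41, −0.46 and −0.3). With upper-quartile factors the median gene was at −0.25 with 63% of calls lower, and Tgfbr1 and Tgfbr2 were at −0.02 and −0.08. The 5 genes that fell did so under both.

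**Figure D4:**
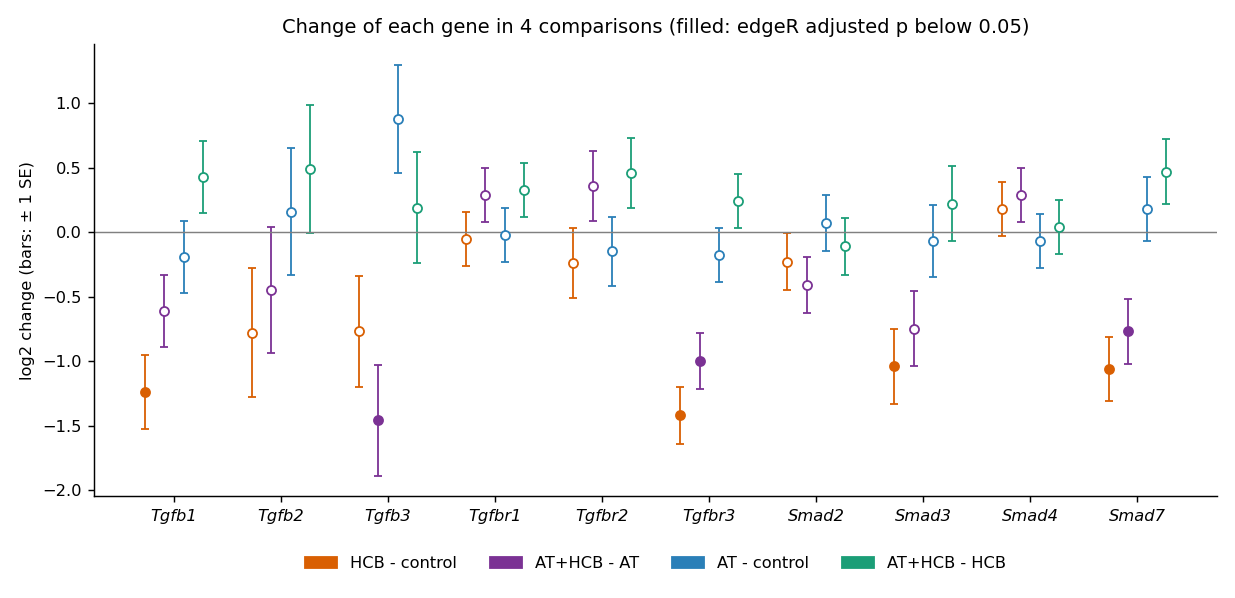
Log2 change ± 1 SE of each gene in HCB minus control, combination minus atorvastatin, atorvastatin minus control and combination minus HCB (AT, atorvastatin), filled where the edgeR adjusted p was below 0.05. The filled points are 4 genes in the first comparison, between −1.42 and −1.04, and 3 in the second, between −1.46 and −0.77, with none in the atorvastatin comparisons.

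The promoters of the 4 genes that fell in HCB versus control are shown because these genes share that call. Each window holds 250 bases before and 50 bases after the RefSeq start on build GRCr8, which is not the build of the count table, and all 10 genes had a window there. Both strands were searched for the SMAD palindrome GTCTAGAC, the CAGA box AGCCAGACA, the AP-1 motif TGANTCA, the Sp1 GC box GGGCGG and the TATA motif TATAAA; no motif contains another. Capitals mark matches. The windows are chr1:90324062-90324361 (+ strand), chr14:2634044-2634343 (+ strand), chr8:73132275-73132574 (- strand) and chr18:71263258-71263557 (+ strand), in that order.
Tgfb1: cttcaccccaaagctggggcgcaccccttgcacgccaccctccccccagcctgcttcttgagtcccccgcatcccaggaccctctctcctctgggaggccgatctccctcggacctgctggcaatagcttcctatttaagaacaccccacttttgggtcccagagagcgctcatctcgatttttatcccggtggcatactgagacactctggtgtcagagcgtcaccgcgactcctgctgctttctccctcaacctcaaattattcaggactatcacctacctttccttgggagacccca
Tgfbr3: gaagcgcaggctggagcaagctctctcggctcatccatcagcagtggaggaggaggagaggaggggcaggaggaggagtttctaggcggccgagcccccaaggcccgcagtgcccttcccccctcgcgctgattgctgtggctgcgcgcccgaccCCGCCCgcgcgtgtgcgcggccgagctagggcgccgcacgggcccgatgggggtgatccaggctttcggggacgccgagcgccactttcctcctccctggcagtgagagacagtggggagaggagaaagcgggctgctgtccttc
Smad3: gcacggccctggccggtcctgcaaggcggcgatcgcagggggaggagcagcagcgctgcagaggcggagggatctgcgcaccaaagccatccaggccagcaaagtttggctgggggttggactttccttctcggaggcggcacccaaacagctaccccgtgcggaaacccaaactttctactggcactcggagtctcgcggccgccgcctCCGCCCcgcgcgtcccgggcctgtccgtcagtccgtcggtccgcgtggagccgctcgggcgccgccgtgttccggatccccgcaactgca
Smad7: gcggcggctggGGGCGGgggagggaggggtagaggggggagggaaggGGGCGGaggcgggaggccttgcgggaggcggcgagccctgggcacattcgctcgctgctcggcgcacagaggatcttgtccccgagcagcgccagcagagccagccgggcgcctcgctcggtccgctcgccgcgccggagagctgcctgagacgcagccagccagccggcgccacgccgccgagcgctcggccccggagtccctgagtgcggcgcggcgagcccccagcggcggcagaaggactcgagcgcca

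Matches in these 4 windows were all to the GC box. Tgfbr3 had 1 on the minus strand, 95 to 90 bases before the start, Smad3 had 1 on the minus strand, 40 to 35 bases before it, Smad7 had 2 on the plus strand, and Tgfb1 had 0. Of 33469 windows of that length, 33.1% held this motif. The windows of Tgfbr1, Tgfbr2 and Smad2, which were not called, held it too. No window of the 10 genes held the SMAD palindrome, the CAGA box or the AP-1 motif as spelled, which 0.197%, 0.368% and 7.33% of all windows held, and this says only that these letters are not in these stretches. The TATA motif, held by 14.2% of all windows, matched in the Smad4 window alone. The GC content was 57.7% for Tgfb1, 69.7% for Tgfbr3 and for Smad3 and 77.7% for Smad7, against a median of 51.7% over all windows.

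Genes with the most similar profiles over the 8 libraries were found by the root mean square difference of log2 CPM centred on each gene's mean. For Tgfbr3 they were Stab2 (difference 0.092), the hyaluronan scavenger receptor of liver sinusoidal endothelium, Oit3 (0.103), which is likewise a marker of these cells, and the transcription factor Ets1 (0.108). Stab2 ranged from 152 to 188 CPM in the HCB-labelled libraries and from 344 to 426 CPM in the others, and Oit3 from 33.8 to 45.9 against 73 to 102 CPM. Both fell on average, by 1.26 and 1.30 on the log2 scale. As they were chosen for their likeness to Tgfbr3, which fell by 1.21, these falls and ranges follow from the choice. The other endothelial markers did not do so as one. Of the 8 listed, 2 fell and 2 rose, Kdr by 0.49 ± 0.17 and Clec4g by 2.47 ± 0.20. Those not called were Cdh5 at −0.42 ± 0.20, Pecam1 at −0.19 ± 0.15, Lyve1 at −0.16 ± 0.17 and Tek at 0.03 ± 0.18. The sum of the 8 was 651 to 778 CPM in the HCB-labelled libraries and 780 to 1014 CPM in the others. The part of these cells in the Tgfbr3 result was not tested.

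For Smad3 the nearest profiles were those of Cemip2 (0.079), Sh3bp1 (0.103) and Epn2 (0.107). For Smad7 they were Tjap1 (0.089), Ehbp1 (0.102) and Pcif1 (0.112). Those of Tgfb1 were farther off, Maml2, a Notch coactivator, at 0.134, the cyclin Ccnd2 at 0.134 and the receptor of platelet-activating factor Ptafr at 0.135. Tgfb3 was nearest to Flrt2 (0.169), the collagen gene Col6a3 (0.17) and Srpx2 (0.203), and Col6a3 and Srpx2 encode matrix or secreted proteins. Between the 10 genes themselves the closest pairs were Tgfbr1 with Smad4 (0.175) and Smad3 with Smad7 (0.186).

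The 8 further lists of the superfamily held 82 tested genes, of which 11 rose and 32 fell on average, 52.4% called against 46.6% of all genes and 39% lower against 25.3%. Their median was −0.38. All changes in the next paragraphs are average log2 changes of HCB by edgeR's quasi-likelihood test with Benjamini-Hochberg adjustment over all genes, and CPM ranges set the 4 HCB-labelled libraries against the 4 others.

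Genes that store and activate latent TGF-beta were lower in most cases: 8 of 13 fell and 1 rose, with a median of −0.77. The microfibril protein Fbn1 ranged from 30.5 to 41 CPM against 101 to 199 CPM (−1.99 ± 0.22). The activator thrombospondin 1, Thbs1, ranged from 7.02 to 11.5 against 23.1 to 42.2 CPM (−1.74 ± 0.21). Of the latent TGF-beta binding proteins, Ltbp2 fell by 2.01 and Ltbp4 by 0.96, while Ltbp1 stood at −0.23 ± 0.23 and was not called. The single gene of the list that rose was the integrin subunit Itgav (0.69 ± 0.18), named after its values were seen.

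Among the BMP, activin and GDF ligands, 4 of 14 fell and 2 rose. The activin subunit Inhbb was at 0.045 to 0.697 CPM in the HCB-labelled libraries and at 29.9 to 51.6 CPM in the others, a change of −6.70 ± 0.43 (edgeR adjusted p = 1.22e-06). Gdf10, a BMP-like ligand, fell by 2.95 ± 0.29 and Bmp10, made by stellate cells in liver, by 1.14 ± 0.22. The liver activin subunit Inhbe rose by 1.14 ± 0.27. The other 2 genes called, named after their values were seen, were Inha (−2.46 ± 0.83) and Bmp7 (1.14 ± 0.31).

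Of 9 other receptors tested 2 fell and 1 rose. The type 1 receptor Acvr1 ranged from 17.8 to 26.7 CPM against 33.4 to 42.2 CPM (−0.88 ± 0.17). Acvr2b fell by 1.12 ± 0.39 and Acvr2a rose by 0.47 ± 0.17, but they lost these calls under 8 and 11 of 18 alternatives, and Acvr2a was at −0.05 with total counts. Of the 4 other SMADs the inhibitory Smad6, the counterpart of Smad7 in BMP signalling, fell by 0.84 ± 0.19 and Smad5, a BMP transducer, by 0.60 ± 0.17. Smad6 lost its call under 1 of 18 alternatives, without both libraries with most reads outside exons. Smad5 lost it under 5, which included leaving out Control replicate 1, Atorvastatin replicate 1 or either combination library, and its change was then −0.6 to −0.4.

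Inhibitors and co-repressors were called in 10 of 15 cases, 8 lower and 2 higher. Follistatin, Fst, which binds activins, ranged from 0.267 to 0.507 CPM against 12.6 to 28.7 CPM (−5.63 ± 0.27, edgeR adjusted p = 1.29e-07). The co-repressor Tgif2 fell by 2.20 ± 0.34 and the co-repressor Skil, a SMAD target, by 0.80 ± 0.21. The SMAD phosphatase Ppm1a rose by 0.76 ± 0.16, and Fkbp1a, which binds type 1 receptors, by 0.55 ± 0.16 (named after its values were seen). Of 4 SMAD co-factors tested 1 rose, the SMAD anchor Zfyve9 (0.94 ± 0.18), from 21.5 to 25.4 CPM in the libraries without HCB to 35.4 to 52.3 CPM.

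Of 17 known TGF-beta targets 6 fell and 1 rose, with a median of −0.61. The collagen genes Col1a2 (58.2 to 85 against 177 to 648 CPM) and Col1a1 (25.2 to 44.2 against 136 to 1351 CPM) had changes of −2.02 ± 0.34 and −3.31 ± 0.57 and both fell, and smooth muscle actin Acta2 fell by 1.98 ± 0.40 and the protease Mmp2 by 1.26 ± 0.28. Atorvastatin replicate 2 set much of these sizes: without it the changes were −1.41 for Col1a2, −2.15 for Col1a1, −1.3 for Acta2 and −0.81 for Mmp2, all still called. Klf10 (−1.13 ± 0.27) and the cell cycle inhibitor Cdkn2b, which rose by 2.04 ± 0.49, were also called and were named after their values were seen. Col3a1, another collagen gene, stood at 305 to 423 against 345 to 1304 CPM and was not called (−0.63 ± 0.34, edgeR adjusted p = 0.151). The stellate cell sums given above were lower in the HCB-labelled libraries, as were Col1a1, Col1a2 and Reln (mean 153 against 407 CPM). The part of these cells in the changes was not tested. Col1a1, Reln and Col3a1 are counted in those sums, and Col3a1, at a mean of 363 CPM, made up most of them in the HCB-labelled libraries. Col3a1 was named after its values were seen. Fn1 (−0.26 ± 0.32), Tgfbi (−0.22 ± 0.25), Ccn2 (0.37 ± 0.30) and Tagln (−0.15 ± 0.37), also named after their values were seen, were not called.

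Of 6 BMP targets 3 rose and 2 fell. Hamp, which encodes the iron hormone hepcidin, ranged from 15.9 to 102 CPM in the HCB-labelled libraries and from 0.457 to 2.72 CPM in the others (4.67 ± 0.59, edgeR adjusted p = 0.000276). Id1 fell by 1.73 ± 0.29 and Id3 by 0.58 ± 0.16, while Id4 rose by 0.95 ± 0.19 and Atoh8, named after its values were seen, by 0.47 ± 0.18. Id3 lost its call under 4 of 18 alternatives, which included leaving out Control replicate 1 or either combination library. Id4, like Inhbe, Ppm1a and Zfyve9 above, lost its call with total counts. So the Id genes, which are commonly read together as BMP targets, did not move one way.

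**Figure D5:**
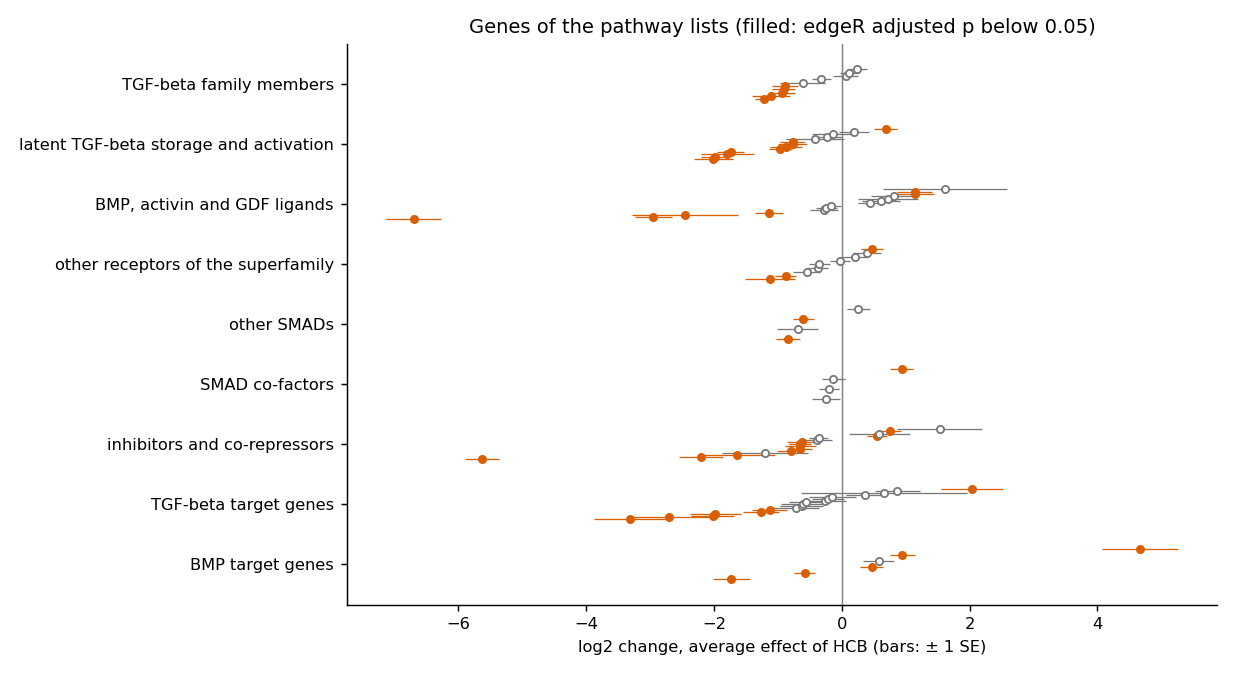
Average log2 change of HCB (± 1 SE) for each tested gene of the 10-gene set and the 8 further lists, filled where the edgeR adjusted p was below 0.05. Inhbb (−6.70) and Fst (−5.63) lie farthest left and Hamp (4.67) farthest right, and 8 of 13 latent storage genes are filled and left of 0.

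Atorvastatin changed none of the 10 genes past the test, with or without HCB. In atorvastatin versus control, the combination versus HCB, the average effect of atorvastatin and the interaction, edgeR called 0 of 16591 genes, or 0%, and 0 of the 10. Genes with an unadjusted p below 0.05 numbered 181, 857, 601 and 391, and DESeq2 called 3, 47, 12 and 5. None of the 10 genes had an unadjusted p below 0.05 in any of these, and DESeq2 called 0 of them.

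Between the combination and HCB, 9 of the 10 genes had a change above 0 and their median was 0.28, while the median of all genes was 0. The largest were Tgfb2 (0.49 ± 0.50), Smad7 (0.47 ± 0.25), Tgfbr2 (0.46 ± 0.27) and Tgfb1 (0.43 ± 0.28), and the smallest unadjusted p, for Smad7, was 0.0838 (edgeR adjusted p = 0.892). For 5 genes, Tgfb1, Tgfbr1, Tgfbr2, Tgfbr3 and Smad7, both combination libraries were above both HCB libraries, as they were for 17.9% of all genes tested. In atorvastatin versus control the median of the 10 was −0.05, and the largest value was that of Tgfb3 (0.88 ± 0.42, edgeR adjusted p = 1), which was −0.1 without Atorvastatin replicate 2. The interaction, which asks whether the difference between HCB-labelled and other libraries changed with atorvastatin, was largest in size for Tgfb3 (−0.69 ± 0.60), which was 0.3 without Atorvastatin replicate 2, followed by Tgfb1 (0.63 ± 0.40) and Tgfbr2 (0.60 ± 0.38), with adjusted p = 1 for all 10 by edgeR. Standard errors for a pair of groups ran from 0.21 to 0.50, so the precision rests on 2 libraries a group.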

How the data were processed

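Liver RNA of 8 rats was sequenced as paired reads of 150 bp. Per the submitters' processing notes, the authors trimmed reads with fastp 0.23.4, aligned them with STAR 2.7.10b and ran DESeq2 1.42.1 in R 4.3.2. Per the file headers, the deposited whole-number read counts come from featureCounts 2.0.6 over exons of Ensembl release 111 on mRatBN7.2, with no strand option and with mates counted singly. No exon of the 10 genes overlaps another gene.

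From the counts, edgeR 4.0.16 in R 4.3.3 (TMM, filterByExpr, robust quasi-likelihood test) fitted 1 model of 4 groups over 8 libraries with 4 residual degrees of freedom. Benjamini-Hochberg adjustment covered all 16591 genes tested, with 0.05 as the threshold. CPM uses TMM library sizes, and log CPM for likeness of profiles a prior count of 2. SE is the log2 change divided by the square root of F. The libraries are from separate rats per the labels. The steps were tested on simulated data.

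The alternatives were DESeq2 1.42.0 and its size factors, total counts, upper-quartile factors, no filter, 1 CPM in 2 libraries, no robust estimation, a replicate block, halved counts, only the libraries of 2 groups, each library left out, and both libraries with most reads outside exons left out. All 10 genes are named. Each further list names up to 4 genes with the smallest p among those called for the average effect of HCB, and each called gene of the 10 its 3 nearest profiles. The members, lists and tests were chosen with earlier results of these data known. The deposited summary gave counts of reads per assignment class, and the readme was read and not analysed. Promoters are from RefSeq (GRCr8). Of the TGF-beta target genes 1 counted in its list is not reported here by name.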

Additional observations from a re-analysis of the deposited data

How the results depend on the processing

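With 2 libraries a group, calls near the threshold depend on single libraries. Of 1300 values of the 10 genes over comparisons and alternatives, 1209 kept direction and call, 25 lost the call, 10 gained it and 56 changed sign, and of 26 named genes of the further lists 17 kept both throughout. Most of the 1300 values were of genes not called in that comparison in the fit reported above, so they had no call to lose. The causes of the changes were not tested.

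Genes called without a filter on low counts were 76 for atorvastatin versus control, 179 for the combination versus HCB, 140 for the average effect of atorvastatin and 70 for the interaction, and by DESeq2 3, 47, 12 and 5, against 0 in each by edgeR as reported. With both libraries with most reads outside exons left out, 2108 genes were called in HCB versus control, with 2 of the 10 genes, 2147 in the combination versus atorvastatin and 4643 on average. In the combination versus atorvastatin, total counts called 6 of the 10 genes and the libraries of these groups alone 1. The share of calls that were lower moved with total counts from 51.5% to 75.9% in HCB versus control and from 54.4% to 85.1% in the combination versus atorvastatin, where upper-quartile factors gave 65.3%.

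Leaving out each library in turn gave 2164 to 4622 genes in HCB versus control (1 to 4 of the 10), 1902 to 4819 in the combination versus atorvastatin (0 to 3 of the 10), 0 to 33 in atorvastatin versus control, 0 to 6 in the combination versus HCB, 0 to 9 for the average effect of atorvastatin and 0 to 5 for the interaction. Atorvastatin replicate 1 gave the 33, 9 and 5.

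With the replicate number as a block, 4282, 4398 and 7548 genes were called in HCB versus control, the combination versus atorvastatin and on average, with 4, 3 and 5 of the 10. Deviations of libraries with the same number correlated at −0.05 to 0.27, and the labels tie a number to no litter or batch. The highest value, 0.27, was that of control with atorvastatin. Reads outside exons were 27.7% and 34% in replicates 1 of these groups and 15.3% and 19.5% in replicates 2. Whether libraries of the same number share a batch or handling was not tested. The block moved Tgfb2 in atorvastatin versus control to −0.01.

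Signs that changed were of values not called, save Acvr2a on average (−0.05 with total counts). With total counts, Smad4 was at −0.25 in HCB versus control, Tgfbr1, Tgfbr2 and Smad4 at −0.34, −0.26 and −0.35 in the combination versus atorvastatin and at −0.41, −0.46 and −0.3 on average. Tgfbr1, Smad3 and Smad4 were at 0.1, 0.09 and 0.06 in atorvastatin versus control, Smad4 at −0.04 in the combination versus HCB and at −0.1 for the interaction, and Smad2 and Smad4 both at 0.01 for the average effect of atorvastatin. With upper-quartile factors, Tgfbr1 and Tgfbr2 were at −0.02 and −0.08 on average and Smad4 at −0.02 in the combination versus HCB. Without both libraries with most reads outside exons, Tgfb1 and Smad7 were at 0.11 and −0.07 in atorvastatin versus control, Smad3 at −0.14 for the average effect of atorvastatin and Tgfb2 at −0.29 for the interaction.

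With each library left out in turn, signs changed within these ranges. In HCB versus control they were −0.11 to 0.02 for Tgfbr1 and −0.54 to 0.03 for Tgfbr2, on average −0.09 to 0.21 for Tgfbr2, and in the combination versus atorvastatin −1.16 to 0.36 for Tgfb2. In atorvastatin versus control they were −0.58 to 0.11 for Tgfb1, −0.65 to 0.67 for Tgfb2, −0.1 to 1.46 for Tgfb3, −0.51 to 0.26 for Smad3, −0.17 to 0.01 for Smad4 and −0.15 to 0.45 for Smad7. In the combination versus HCB they were −0.24 to 0.98 for Tgfb2, −0.04 to 0.4 for Tgfb3, −0.24 to 0.03 for Smad2 and −0.09 to 0.19 for Smad4. For the average effect of atorvastatin they were −0.07 to 0.27 for Tgfb1, −0.08 to 0.58 for Tgfb2, −0.02 to 0.08 for Tgfbr3, −0.09 to 0.05 for Smad2, −0.14 to 0.24 for Smad3 and −0.08 to 0.06 for Smad4. For the interaction they were −0.4 to 1.14 for Tgfb2, −1.26 to 0.3 for Tgfb3, −0.03 to 0.73 for Smad3 and −0.02 to 0.26 for Smad4.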

Other observations

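Among the further genes of the pathway, the collagen cross-linking enzyme Lox ranged from 0.765 to 130 CPM over the 4 HCB-labelled libraries, with a mean of 65.4 ± 91 CPM (SD, n = 2) in HCB and 0.796 ± 0.0441 CPM (SD, n = 2) in the combination. The activin subunit Inhba stood at 5.68 ± 4.23 CPM (SD, n = 2) in HCB and 19.5 ± 7.7 CPM (SD, n = 2) in the combination, and at 5.08 ± 2.16 and 7.07 ± 2.16 CPM (SD, n = 2) in control and atorvastatin. Both genes were picked after their values were seen, and neither was called for the average effect of HCB (edgeR adjusted p = 0.703 and 0.0881).

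Macrophages of the liver, a source of TGF-beta 1, had markers that moved both ways. Of 8 Kupffer cell and macrophage markers 1 rose and 2 fell on average by edgeR. Clec4f, a lectin of Kupffer cells, rose by 1.34 ± 0.26 on the log2 scale, from 28.6 to 59.5 CPM in the libraries without HCB to 82.3 to 141 CPM. The scavenger receptor Marco fell by 1.48 ± 0.35, and Timd4, a receptor of resident macrophages, by 1.34 ± 0.51. The sum of the 8 was 297 to 488 CPM in the HCB-labelled libraries and 270 to 441 CPM in the others. The part of these cells in the Tgfb1 result was not tested. The lymphocyte sum (3.86 to 7.85 against 5.59 to 7.36 CPM), the platelet sum (16.3 to 20.8 against 15.1 to 24.4 CPM) and the cholangiocyte sum (9.27 to 18.2 against 10.6 to 16.9 CPM) overlapped as well. Single markers in them still differed for the average of HCB. Of the markers tested, 1 of 6 lymphocyte genes and 3 of 5 platelet genes fell and 0 rose. Of 3 cholangiocyte genes 2 fell and 1 rose.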
